A study of Mus musculus with 6 samples.

Results

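The genes described here are 10 genes of the brain endothelium and its barrier, listed by name with earlier results of these data known, of 18211 genes in the expression table. They are Cldn5, Ocln, Slc2a1, Mfsd2a, Abcb1a, Plvap, Pecam1, Cdh5, Tek and Sox17. All 10 were in the table, and all 10 passed the filter on low values that left 13792 genes for testing. RNA from oligodendrocyte precursor cells (OPCs), the glial cells that give rise to oligodendrocytes, was sequenced in 3 wildtype (WT) and 3 DISC1-Δ3 libraries. Cells were taken from brains of pups at postnatal day 7 (P7) by immunopanning, in which cells bind to a dish coated with antibody, here against PDGFRα. Both groups were on the C57BL/6 strain, and both received tamoxifen by gavage on 4 consecutive days from P4. The DISC1-Δ3 mice were of genotype NG2-CreERTM: DISC1 exon3 fl/+, in which tamoxifen removes exon 3 from 1 allele of Disc1. The WT animals carried no CreERT according to the study's text. Recombination is driven from NG2, which OPCs make and which, as background, pericytes of the vessel wall make as well. The paper reports DISC1-Δ3 mRNA as raised in isolated OPCs and not in the other brain cell types it assayed, pericytes among them. It also reports the appearance of the vasculature as unaffected, in mice older than P7. The sources used here do not say how many pups went into a library or whether each library came from separate animals. The p-values therefore measure the spread between these libraries, which may be partly technical.

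The blood-brain barrier is made by the endothelial cells of brain capillaries. Tight junctions seal the clefts between these cells, vesicle traffic through them is kept low, and selected transporters carry nutrients in and drugs out. Wnt ligands from neural cells act on the endothelium through β-catenin, and this signal is known to induce and maintain the barrier during development. In bulk RNA of panned OPCs, endothelial transcripts can come from vascular cells or RNA left in the preparation, or from other cells. Their source was not tested, and fewer endothelial cells and less RNA per endothelial cell cannot be told apart.

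The libraries held 13716619 to 16417219 assigned reads, and the 10 genes had between 54 and 3767 reads in a library. DISC1-Δ3 replicate 3 stood apart from the other DISC1-Δ3 libraries, with a chi-square divided by its degrees of freedom at 5.38 and 4.98 against them, where they differed from each other by 2.59 and the WT libraries by 1.80 to 2.96. Disc1, the targeted gene, had a mean of 3.55 ± 0.238 RPKM (SD, n = 3) in WT and 2.72 ± 0.240 in DISC1-Δ3 (log2 fold change -0.45, adjusted p = 0.000528, edgeR), and the table does not resolve its exon 3. Cspg4, which encodes NG2, was at 15.8 ± 1.38 and 22.9 ± 1.41 RPKM. A list of 31 other endothelial identity genes was set beside the 10 genes. All 31 passed the filter and none was at 0 in any library, which does not show from which cells these 31 genes were read. Their summed level, 838 to 880 CPM (reads of a gene scaled to a common library total) in WT, was small beside that of 10 microglial markers, at 22601 to 22926 CPM, and that of 8 OPC markers, at 2071 to 2178 CPM. The transcripts described here were therefore a minor part of these libraries.

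Promoter sequence is shown first for 4 of the genes. Cldn5 and Mfsd2a are shown because they passed the test in opposite directions, and Abcb1a and Tek because they hold motifs searched for below. RefSeq promoter windows, from 250 bases before the transcription start to 50 after it on build GRCm38.p6, were matched for 6 of the 10 genes, and Ocln had more than 1 of them. Capitals mark, on either strand, the TCF/LEF cores CTTTGAA and also CTTTGAT, with their variants CTTTGTT and then CTTTGTA, the SOX cores ACAATG and likewise ACAATA, and the ETS core AGGAAG. No cores overlapped, and each sequence reads 5′ to 3′ on the gene's strand. The windows lie at chr16:18776597-18776896 on the plus strand for Cldn5, at chr4:122961139-122961438 on the minus strand for Mfsd2a, at chr5:8566841-8567140 on the plus strand for Abcb1a and at chr4:94739039-94739338 on the plus strand for Tek.
Cldn5: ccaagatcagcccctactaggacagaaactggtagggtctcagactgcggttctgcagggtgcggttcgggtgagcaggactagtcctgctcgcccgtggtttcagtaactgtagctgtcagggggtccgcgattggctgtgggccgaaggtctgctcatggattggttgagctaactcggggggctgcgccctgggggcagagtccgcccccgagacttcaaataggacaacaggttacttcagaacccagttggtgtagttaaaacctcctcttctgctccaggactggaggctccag
Mfsd2a: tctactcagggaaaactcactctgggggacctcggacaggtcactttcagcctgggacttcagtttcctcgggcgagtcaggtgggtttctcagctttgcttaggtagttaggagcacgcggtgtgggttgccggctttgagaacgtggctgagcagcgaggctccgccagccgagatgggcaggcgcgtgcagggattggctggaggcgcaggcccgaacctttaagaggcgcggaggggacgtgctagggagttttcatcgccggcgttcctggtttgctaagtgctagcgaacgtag
Abcb1a: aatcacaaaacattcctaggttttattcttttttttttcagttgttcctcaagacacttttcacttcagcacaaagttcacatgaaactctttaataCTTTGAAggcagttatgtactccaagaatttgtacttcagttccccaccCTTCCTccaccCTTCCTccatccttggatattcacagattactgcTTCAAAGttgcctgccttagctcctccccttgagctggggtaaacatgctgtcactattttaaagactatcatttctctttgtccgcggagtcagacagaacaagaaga
Tek: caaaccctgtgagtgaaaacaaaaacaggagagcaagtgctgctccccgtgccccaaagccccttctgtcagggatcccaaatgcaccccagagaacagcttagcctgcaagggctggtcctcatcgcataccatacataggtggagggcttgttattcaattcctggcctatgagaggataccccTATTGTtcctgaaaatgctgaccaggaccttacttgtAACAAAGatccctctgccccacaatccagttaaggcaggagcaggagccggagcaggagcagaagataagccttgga

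The Abcb1a window held TCF/LEF cores from -153 to -147 and from -59 to -53, counted from the start site, and ETS cores from -104 to -99 and from -93 to -88. The Tek window held a TCF/LEF core from -27 to -21 and a SOX core from -64 to -59. Its start site lies downstream of the gene's first base as given below (chr4:94739086), so both cores fall inside that span. The Cldn5, Slc2a1, Mfsd2a and Ocln windows held none of these letters. Among all 32851 promoter windows of the same length, 16.9% held a TCF/LEF core, 19.7% a SOX core and 35.4% an ETS core. These matches are a description of the letters and do not show a binding site.

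Between genotypes, 3 of the 10 genes were higher in DISC1-Δ3 (Cldn5, Sox17 and Cdh5), 1 was lower (Mfsd2a), and 6 did not pass an adjusted p of 0.05 in the quasi-likelihood test of edgeR, adjusted by Benjamini-Hochberg over all 13792 genes. The share called, 40%, was that of the whole table, where 39.9% of genes were called, 20.4% as higher and 19.5% as lower. Groups did not overlap in CPM for 5 of the 10, against 49.6% of all tested genes. The median log2 fold change of the 10 was 0.02, and that of all tested genes was 0.0075. The summed level of the 10 genes was 560 to 571 CPM in WT and 552 to 584 CPM in DISC1-Δ3, with overlapping ranges.

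**Figure D1:**
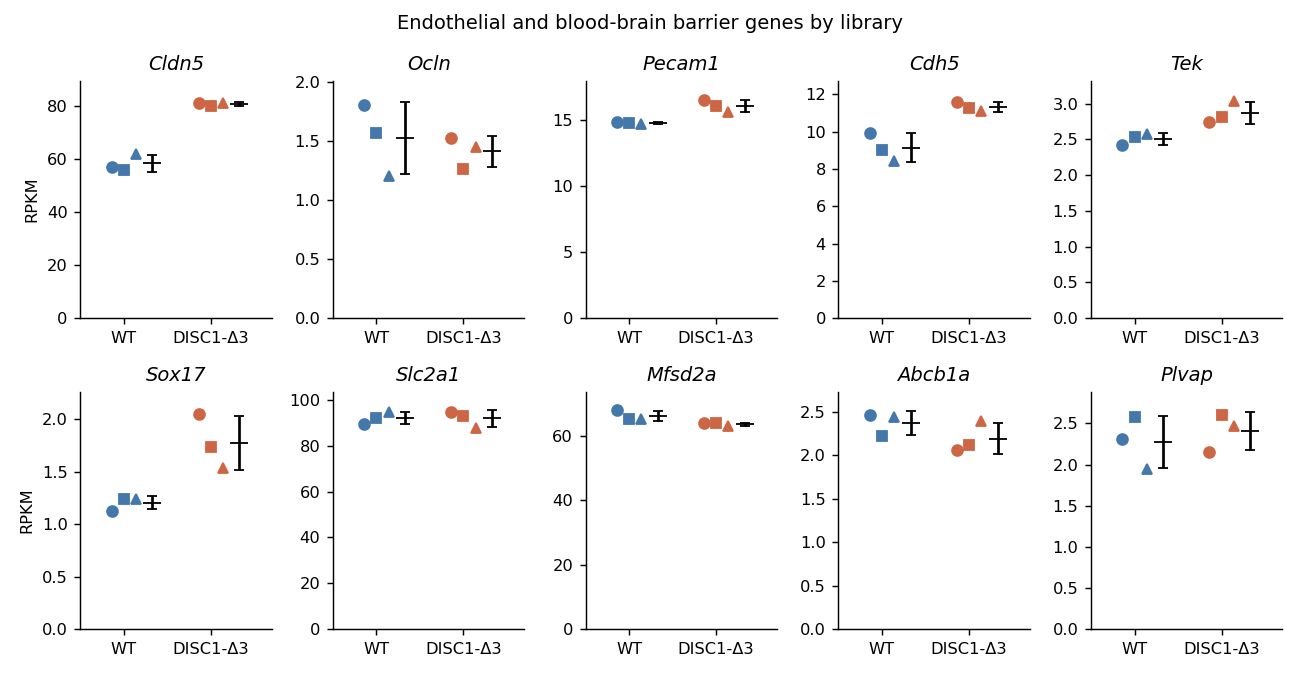
RPKM of each of the 10 genes in WT and DISC1-Δ3 libraries, 1 panel per gene with its own axis from 0; circles, squares and triangles are replicates 1, 2 and 3, and bars are the mean ± SD (n = 3). The Cldn5 libraries lie at 56.1 to 62.2 RPKM in WT and at 80.1 to 81.4 in DISC1-Δ3, whereas the Slc2a1 ranges overlap.

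Among the tight junction genes, Cldn5 encodes claudin-5, the main claudin of the brain endothelial junction. Its gene lies at chr16:18776847-18778262 (GRCm38.p6, plus strand). Cldn5 measured 57.2, 56.1 and 62.2 RPKM in WT replicates 1 to 3, and 81.2, 80.1 and 81.4 RPKM in DISC1-Δ3 replicates 1 to 3. Every DISC1-Δ3 library was above every WT library, and the DISC1-Δ3 libraries lay closer together. The mean rose from 58.5 ± 3.27 to 80.9 ± 0.731 RPKM (SD, n = 3). Scaled between libraries by TMM, which sets the bulk of genes to no change, the fitted log2 fold change was 0.39 (SE 0.054, 95% confidence interval 0.27 to 0.50), a fold of 1.31, with an adjusted p of 1.57e-05 in edgeR's quasi-likelihood test. It rested on 992 to 1293 reads per WT library and 1475 to 1664 per DISC1-Δ3 library. Cldn5 passed the test under all 14 alternative settings, with a log2 fold change between 0.36 and 0.47 and an adjusted p between 1.06e-07 and 0.000459 across edgeR, DESeq2 and limma. Of all tested genes, 23.2% had a log2 fold change larger in size than that of Cldn5.

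Ocln encodes occludin, a membrane protein of the same junction that epithelia also make. It lies at chr13:100496504-100552718 on the minus strand. Ocln measured 1.80, 1.57 and 1.20 RPKM in WT and 1.52, 1.26 and 1.45 RPKM in DISC1-Δ3. The DISC1-Δ3 libraries fell within the WT range, which was the wider one. The log2 fold change was -0.22 with a 95% confidence interval from -0.57 to 0.14 (adjusted p = 0.326, edgeR), so an effect of the size seen for Cldn5 in the opposite direction lay inside the interval. Whether the changes of Cldn5 and Ocln differ was not tested.

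Of the 15 other junction genes tested, 5 were higher and 3 lower by the same edgeR test, with a median log2 fold change of 0.06. The share called was 53.3%, beside 39.9% of all tested genes. Tjp3, a scaffold protein typical of epithelial junctions, rose by 1.71 on the log2 scale, from 0.633 to 2.14 mean RPKM. Marveld3, a relative of occludin, had 1, 1 and 2 reads in the WT libraries and 43, 62 and 70 in the DISC1-Δ3 libraries. Afdn, which links junction proteins to actin, rose by 0.57 in log2 terms. The 3 junction genes that fell were F11r (JAM-A) at -0.35, the scaffold Tjp1 (ZO-1) at -0.29 and Jam2 (JAM-B) at -0.15. Of 4 tested epithelial markers 3 rose alongside Tjp3 and Marveld3, among them Krt18 from 2.58 to 18.8 mean RPKM and Krt8 from 0.953 to 10.7. Epcam, at 2.00 and 2.26 mean RPKM in WT and DISC1-Δ3, did not pass (adjusted p = 0.754, edgeR). The summed epithelial level was 9.14 to 10.1 CPM in WT and 59.3 to 61.5 CPM in DISC1-Δ3, and Cldn7, Esrp1 and Grhl2 were at 0 in at least 1 library. Their part in the junction counts was not tested.

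Among the transporters, Slc2a1 encodes GLUT1, which carries glucose across the barrier and which glial cells also make. It lies at chr4:119108745-119137330 on the plus strand, with 105 exon bases shared with the opposite-strand gene Gm12868. Slc2a1 measured 89.4, 92.0 and 94.9 RPKM in WT and 94.8, 93.2 and 87.9 RPKM in DISC1-Δ3. The groups overlapped, and the means of 92.1 ± 2.73 and 92.0 ± 3.57 RPKM were closer than the SD of either group. On TMM scaling the log2 fold change was -0.08 with a 95% confidence interval from -0.18 to 0.02 (adjusted p = 0.175, edgeR), so a change of 0.2 in size on the log2 scale lay outside the interval.

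Mfsd2a encodes the lysophospholipid transporter that brings docosahexaenoic acid into the brain and keeps vesicle traffic low. It lies at chr4:122946850-122961194 on the minus strand. Mfsd2a measured 68.0, 65.4 and 65.3 RPKM in WT and 64.0, 64.0 and 63.2 RPKM in DISC1-Δ3. All DISC1-Δ3 libraries were below all WT libraries, by little. Its mean went from 66.2 ± 1.56 to 63.7 ± 0.468 RPKM, and on TMM scaling it fell by 0.14 on the log2 scale (SE 0.046, adjusted p = 0.0236, edgeR), a fold of 0.909. The call ended when the RPKM sums set the scaling (-0.05), in limma on log2 RPKM with either pseudocount (-0.06 in both) and when any WT library was left out, where the log2 fold change was -0.12, -0.14 and -0.15 without WT replicates 1, 2 and 3 and edgeR's adjusted p ran from 0.0504 to 0.0742. Mfsd2a was thus called only with all WT libraries and a scaling that sets the bulk of genes to no change.

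Abcb1a encodes a P-glycoprotein, the efflux pump that keeps many drugs out of the brain. It lies at chr5:8567091-8748575 on the plus strand, and 553 of its exon bases overlap the opposite-strand gene Gm42686. Abcb1a measured 2.46, 2.22 and 2.44 RPKM in WT and 2.06, 2.12 and 2.40 RPKM in DISC1-Δ3. The groups overlapped through DISC1-Δ3 replicate 3, and the log2 fold change was -0.19 (95% confidence interval -0.42 to 0.05, adjusted p = 0.194, edgeR). Abcb1a shares reads with its paralogue Abcb1b, and the deposited estimates split them, so that 167.92 reads in WT replicate 1 went to Abcb1a and 154.08 to Abcb1b. Summed, the pair had 322, 351 and 377 reads in WT and 259, 320 and 335 in DISC1-Δ3, and the sum fell by 0.29 on the log2 scale (SE 0.086, adjusted p = 0.0135, edgeR). The summing was chosen after the data were seen, and the value of Abcb1a alone remains uncertain.

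Of 21 other barrier transport and transport-linked genes, 6 were higher and 5 lower by edgeR's adjusted p, with a median log2 fold change of 0.05. The share called was 52.4%, beside 39.9% of all tested genes. Spock2, a matrix proteoglycan, rose by 1.04 on the log2 scale, from 74.9 ± 0.537 to 164 ± 4.10 RPKM. Itm2a, a membrane protein enriched in brain endothelium, rose by 0.31 and Pltp, the phospholipid transfer protein, by 0.24. Ager (RAGE) fell by 0.74, with 25 to 52 reads per library, the insulin receptor Insr by 0.38, and the glutamine transporter Slc38a3 by 0.32. Slc38a3 is also made by astrocytes, whose 8 markers were lower in 5 cases and higher in 2, with a summed level of 5260 to 5480 CPM in WT and 4341 to 4429 CPM in DISC1-Δ3 and none at 0; the part of these cells in the result was not tested.

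Plvap encodes the diaphragm protein of fenestrated and leaky vessels, which the mature barrier endothelium loses. It lies at chr8:71497753-71511806 on the minus strand. Plvap measured 2.31, 2.58 and 1.95 RPKM in WT and 2.15, 2.60 and 2.47 RPKM in DISC1-Δ3. The groups overlapped almost entirely, with a log2 fold change of 0.0067 and a 95% confidence interval from -0.36 to 0.37 (adjusted p = 0.979, edgeR). Among 5 tested genes of vesicles and endothelial activation, Cav1 and Cav2, which build caveolae, rose by log2 values of 0.38 and 0.39, and the adhesion molecule Vcam1 fell by 0.22. In all, 3 of these 5 genes were higher and 1 lower, with a median of 0.28. The share called was 80%, beside 39.9% of all tested genes.

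**Figure D2:**
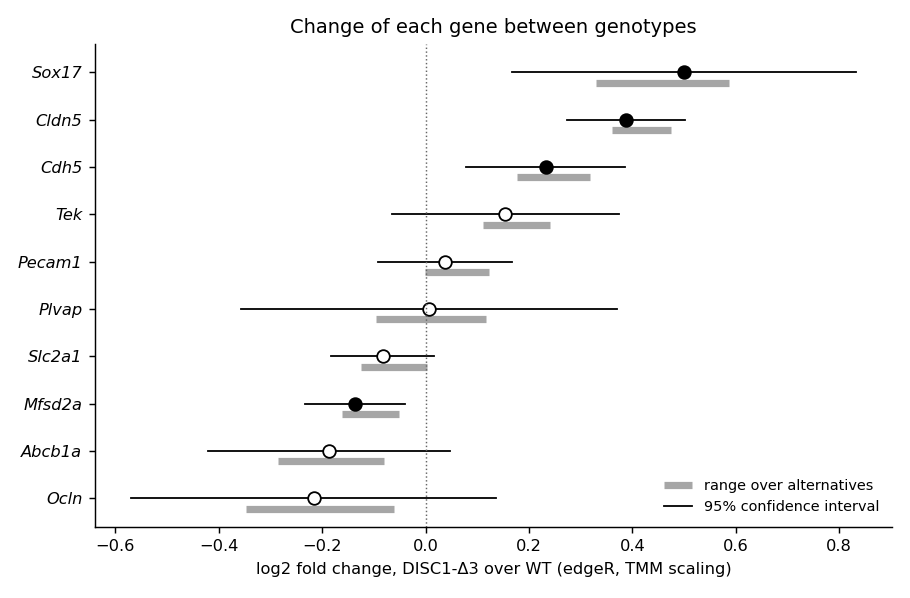
Fitted log2 fold change of each of the 10 genes, DISC1-Δ3 over WT on TMM scaling (points, filled where edgeR's adjusted p was under 0.05), with 95% confidence intervals as black lines and the range over alternative settings as grey bars. Cldn5 at 0.39, Sox17 at 0.50 and Cdh5 at 0.23 lie above 0, Mfsd2a at -0.14 lies below, and the other intervals cross 0.

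Pecam1, Cdh5 and Tek mark endothelium of every organ. Whether other cells of the preparation added to their reads was not tested. Pecam1 encodes the adhesion molecule CD31 and lies at chr11:106654213-106715281 on the minus strand. Its RPKM was 14.8, 14.7 and 14.7 in WT and 16.49, 16.03 and 15.58 in DISC1-Δ3. The groups did not overlap in RPKM but did overlap in TMM-scaled CPM. Its log2 fold change was 0.04 with a 95% confidence interval from -0.09 to 0.17 (adjusted p = 0.669, edgeR).

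Cdh5 encodes VE-cadherin, the cadherin of endothelial adherens junctions, and lies at chr8:104101613-104144504 on the plus strand. Cdh5 measured 9.94, 9.02 and 8.40 RPKM in WT and 11.6, 11.2 and 11.1 RPKM in DISC1-Δ3. The ranges did not overlap, and the mean rose from 9.12 ± 0.775 to 11.3 ± 0.254 RPKM. The log2 fold change was 0.23 (SE 0.073, 95% confidence interval 0.08 to 0.39, adjusted p = 0.0171, edgeR). The call was lost when WT replicate 2 or 3 or DISC1-Δ3 replicate 1 or 2 was left out, with log2 fold changes of 0.23, 0.18, 0.19 and 0.21 and edgeR's adjusted p between 0.0610 and 0.106.

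Tek encodes TIE2, the receptor of the angiopoietins, and lies at chr4:94739086-94874976 on the plus strand. Tek measured 2.42, 2.53 and 2.58 RPKM in WT and 2.75, 2.81 and 3.04 RPKM in DISC1-Δ3. The ranges did not overlap, but the log2 fold change of 0.15 had a 95% confidence interval from -0.07 to 0.37 (adjusted p = 0.258, edgeR) and did not pass. Its activating ligand Angpt1 fell by 0.57 on the log2 scale, with 2.22, 2.25 and 2.47 RPKM in WT and 1.28, 1.53 and 2.14 RPKM in DISC1-Δ3. DISC1-Δ3 replicate 3 lay near the WT range of Angpt1.

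Sox17 encodes a transcription factor of arterial and barrier endothelium that acts within Wnt signalling in vessels. It lies at chr1:4490928-4497426 on the minus strand, and 804 of its exon bases overlap the opposite-strand gene Gm37587. Sox17 measured 1.13, 1.24 and 1.24 RPKM in WT and 2.05, 1.74 and 1.54 RPKM in DISC1-Δ3. It had the lowest mean of the 10 genes in WT, and all DISC1-Δ3 libraries were above all WT libraries. Reads numbered 54, 71 and 68 in WT and 98, 101 and 89 in DISC1-Δ3. The log2 fold change was 0.50 (SE 0.16, 95% confidence interval 0.17 to 0.83, adjusted p = 0.0180, edgeR), a fold of 1.41. The call was lost in DESeq2 (adjusted p = 0.0637) and without WT replicate 1 or 3 or DISC1-Δ3 replicate 1 or 2, with log2 fold changes from 0.40 to 0.50 and edgeR's adjusted p from 0.0512 to 0.0911. Whether the counting used strand is not given in the sources used here, so that reads of Sox17, Slc2a1 and Abcb1a cannot be separated from those of their opposite-strand neighbours where exons overlap.

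Without DISC1-Δ3 replicate 3, the library that stood apart, Cldn5 was at 0.39, Sox17 at 0.58, Cdh5 at 0.25 and Mfsd2a at -0.13 on the log2 scale, and all 4 still passed edgeR's test. Of these 4, only Cldn5 passed under all 14 alternatives. Markers of pericytes, smooth muscle and red blood cells also differed between genotypes, whereas the summed level of the 10 genes overlapped. Of 12 tested pericyte and smooth muscle markers 10 rose and none fell, with a summed level of 579 to 611 CPM in WT and 718 to 753 CPM in DISC1-Δ3 and none at 0 in any library. Of all tested genes 39.9% were called, beside 83.3% of these markers. Their highest members, Vtn and Rgs5, rose from 71.4 to 94.9 and from 28.4 to 42.7 mean RPKM. All 5 red blood cell markers rose, with sums of 2639 to 2810 CPM in WT and 4748 to 5450 CPM in DISC1-Δ3, with Hba-a1 and Hba-a2 at the highest mean RPKM and none at 0. Their part in the values of the 10 genes was not tested.

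Of the 31 endothelial identity genes, 7 were higher and 5 lower in DISC1-Δ3 by edgeR's adjusted p, or 38.7%, beside 39.9% of all tested genes. Among those that passed without overlap between groups, the largest rises were those of Emcn (endomucin, 0.67 on the log2 scale), Arhgef15 (0.56) and Nos3 (endothelial nitric oxide synthase, 0.52). The largest falls under the same limits were those of Cd34 (-0.58), Ly6a (-0.44) and Ecscr (-0.31). Cd34 went from 40.6 ± 2.06 to 28.5 ± 1.26 RPKM, while Emcn went from 3.48 ± 0.210 to 5.85 ± 0.332 RPKM, so that identity genes did not move in 1 direction. Their median log2 fold change was 0.12, and their summed level was 820 to 859 CPM in DISC1-Δ3, overlapping the WT range. Whether the transcripts of these 31 genes came from endothelium alone, or in part from other cells of the preparation, was not tested.

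Each of the 10 genes was then set against these identity genes in the same library, as its log2 CPM minus the mean log2 CPM of the 31 genes. Relative to them, Cldn5 was higher in DISC1-Δ3 by 0.32, Sox17 by 0.43 and Cdh5 by 0.16, and these groups did not overlap. Mfsd2a stood at -0.21, Abcb1a at -0.26 and Slc2a1 at -0.15, again without overlap. For these 6 genes the two-sided exact permutation p over 3 against 3 libraries was 0.1, the smallest that this design can give, so none could pass 0.05. Tek at 0.08 (exact permutation p = 0.2), Pecam1 at -0.03 (exact p = 0.4), Plvap at -0.06 (exact p = 0.8) and Ocln at -0.28 (exact p = 0.3) overlapped between groups. The mean of the 31 reference genes was itself 0.07 higher in DISC1-Δ3, and with their summed CPM as the reference Cldn5 was higher by 0.43, Sox17 by 0.54 and Cdh5 by 0.27, and Mfsd2a stood at -0.10, all still without overlap. Under that reference Slc2a1 (-0.04, exact permutation p = 0.5) and Abcb1a (-0.15, exact p = 0.2) overlapped between groups, while Pecam1 (0.08) and Tek (0.19) did not, each with an exact p of 0.1.

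Set against Pecam1 alone, on the RPKM scale, Cldn5 was 3.86, 3.81 and 4.25 times its level in WT and 4.93, 4.995 and 5.23 times in DISC1-Δ3. Mfsd2a went from a mean of 4.50 to 3.97 times the level of Pecam1 and Slc2a1 from 6.25 to 5.73 times. Cldn5 did not overlap between groups on this ratio, nor did Mfsd2a or Slc2a1, which moved the other way. Whether the Pecam1 reads came from endothelium alone was not tested, so the ratio need not be a level per endothelial cell.

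**Figure D3:**
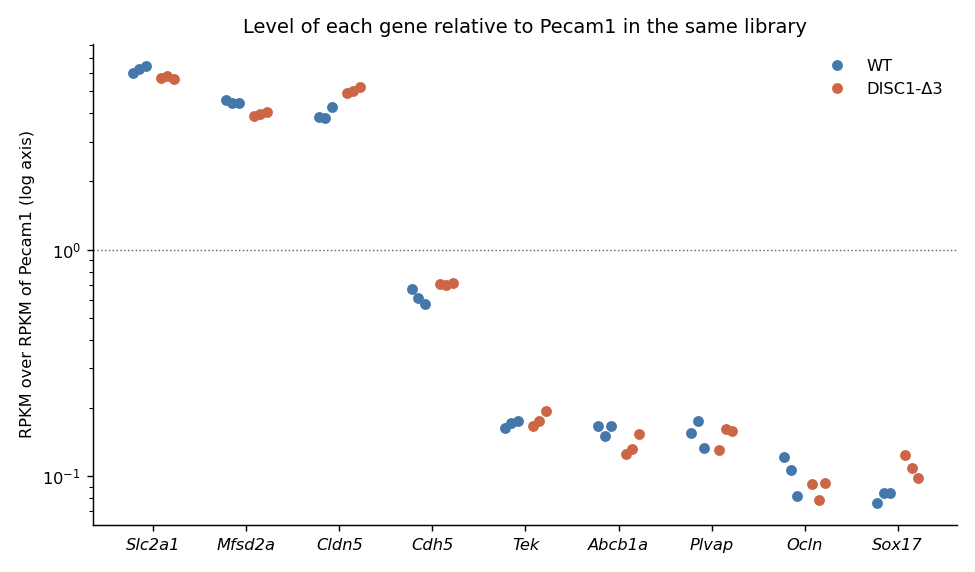
RPKM of 9 genes divided by the RPKM of Pecam1 in the same library, on a log axis; each point is 1 library (3 WT, 3 DISC1-Δ3) and the dotted line at 1 is the level of Pecam1. Cldn5 lies at 3.81 to 4.25 in WT and at 4.93 to 5.23 in DISC1-Δ3, whereas Plvap overlaps, with means of 0.155 and 0.150.

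The order of levels per transcript length in WT ran from Slc2a1 through Mfsd2a, Cldn5, Pecam1, Cdh5, Tek, Abcb1a, Plvap and Ocln to Sox17. Neighbouring ranges overlapped for Tek and Abcb1a, for Abcb1a and Plvap, and for Ocln and Sox17. In DISC1-Δ3 Cldn5 stood above Mfsd2a and Sox17 above Ocln, without overlap of their ranges, and Plvap above Abcb1a with overlap. The 3 genes at the top were therefore at 58.5 to 92.1 mean RPKM in WT, whereas the pan-endothelial Pecam1 was at 14.7 and Cdh5 at 9.12.

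The vascular Wnt list, with ligands, receptors, transducers and targets, had 9 of 20 tested genes higher and 3 lower by edgeR's adjusted p, with a median log2 fold change of 0.31. Its share called was 60%, beside 39.9% of all tested genes. The Wnt targets Nkd1, Lef1 and Axin2 rose by 3.35, 2.52 and 2.33 as log2 fold changes, and Lef1 went from 1.62 ± 0.480 to 9.28 ± 0.552 RPKM. OPCs can express these targets too, and bulk RNA does not separate the cells they come from. The paper reports Axin2 as higher by RT-qPCR in OPCs isolated from DISC1-Δ3 mice. With altered phosphorylation of β-catenin and GSK3β, it takes this as overactive Wnt signalling in the OPCs. Fzd4, the receptor of norrin on endothelium, fell by 0.53 and the co-receptor Lrp5 by 0.41. Other receptors and transducers of the list, also named after their values were seen, went both ways. Adgra2 rose by 0.52 and Ctnnb1, which encodes β-catenin, by 0.30, without overlap, while Lrp6 fell by 0.33 with overlap between groups. The ligands of the list that act on brain endothelium, named here after their values were seen, differed in their calls. Ndp, which encodes norrin, rose from 8.91 ± 0.131 to 11.5 ± 0.634 RPKM without overlap, by 0.28 on the log2 scale (adjusted p = 0.0184, edgeR). Wnt7a at 0.14 (adjusted p = 0.113, edgeR) and Wnt7b at -0.03 (adjusted p = 0.726, edgeR) did not pass.

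Of 16 tested angiogenic factors and receptors, 8 were higher and 2 lower by edgeR's adjusted p, with a median log2 fold change of 0.17. The share called was 62.5%, beside 39.9% of all tested genes. Pgf, a ligand of the VEGF receptor FLT1, rose by 0.89 on the log2 scale, Dll4, the Notch ligand of tip cells, by 0.87, and Vegfc, a lymphatic and vascular growth factor, by 0.81. Angpt1 fell as given above, and Pdgfb, which recruits pericytes, fell by 0.18. Pgf had 69 to 77 reads in WT and 126 to 163 in DISC1-Δ3, and Vegfc had 26 to 30 and 44 to 61.

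**Figure D4:**
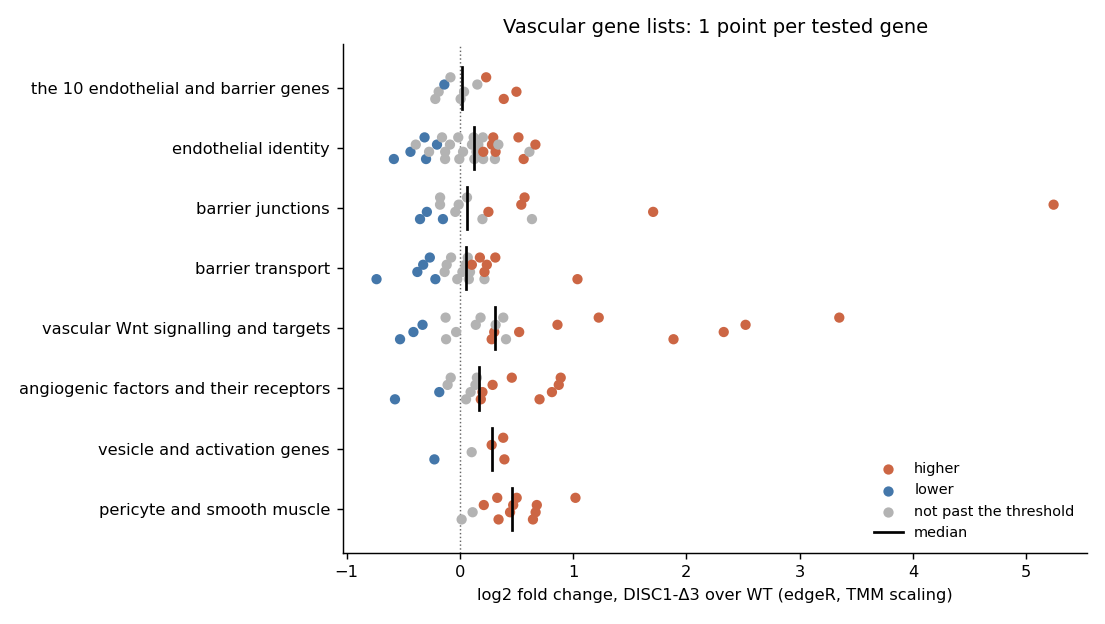
Fitted log2 fold change, DISC1-Δ3 over WT on TMM scaling, with 1 point per tested gene in the 10 endothelial and barrier genes and in 7 other lists; colours mark edgeR's adjusted p under 0.05 as higher or lower, and short lines are medians. Medians lie between 0.02 for the 10 genes and 0.46 for pericyte and smooth muscle markers, and the far right point among junction genes is Marveld3, whose WT libraries held 1 to 2 reads, so that its position depends on the fit.

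Patterns over the 6 libraries were compared by the root mean square difference of centred log2 CPM, as a description with no test. The genes nearest to Cldn5 were Itga5 (0.0265) and Maged2 (0.0267), to Sox17 Usp27x (0.0376) and Zfr2 (0.0459), and to Cdh5 B4galt7 (0.0276) and Mfn2 (0.0288). Those nearest to Mfsd2a were Cdc42 (0.0126) and Crat (0.0137), to Slc2a1 Slc25a5 (0.0123) and Grk6 (0.0139), and to Abcb1a Spred1 (0.0164) and Eif2ak3 (0.0206). For Pecam1 they were Prrc1 (0.0064) and Garem2 (0.0105), for Tek Rbmxl1 (0.0131) and St13 (0.0164), for Plvap Acp5 (0.0449) and Mfap4 (0.0498), and for Ocln Tbc1d4 (0.0446) and Tepsin (0.0568). None of these 20 genes was another of the 10.

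The remaining marker lists place these values in the preparation. Over all tested genes, 20.4% were called higher and 19.5% lower. All 10 microglial markers fell, among them C1qa and C1qc, which had the highest mean RPKM, with sums of 22601 to 22926 CPM in WT and 15059 to 15952 CPM in DISC1-Δ3. Of 8 OPC markers 6 rose and 1 fell, and of 6 oligodendrocyte markers 4 fell, with Mbp at 1807 and 1710 mean RPKM. Neuron markers rose in 6 of 8 cases and choroid plexus markers in 3 of 6, and none of 6 fibroblast markers passed. The fibroblast sum was 154 to 169 CPM in WT and 171 to 191 CPM in DISC1-Δ3. The part of these cell types in the values of the 10 genes was not tested.

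**Figure D5:**
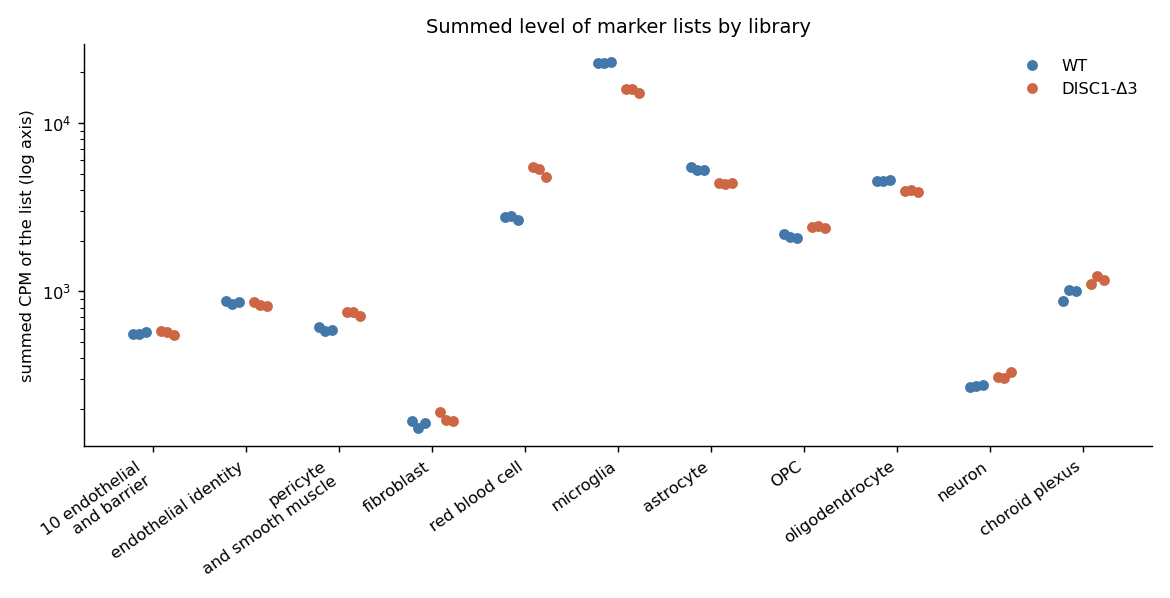
Summed CPM of each marker list by library on a log axis, 3 WT and 3 DISC1-Δ3 points per list, with the 10 endothelial and barrier genes first. The 10 genes lie at 560 to 571 CPM in WT and 552 to 584 CPM in DISC1-Δ3, while the microglial sum is lower in DISC1-Δ3 and the pericyte and red blood cell sums are higher.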

How the data were processed

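RNA of 3 WT and 3 DISC1-Δ3 OPC libraries was sequenced as single-end reads of 50 bases. The authors deposited 1 table of genes by libraries holding expected counts and RPKM. Their expected count divides reads shared by several genes between them, and 90.2% of those above 0 are whole. The deposited RPKM divides that count by the transcript's length and the library's total, with no other scaling. Bowtie2 2.2.5 and build mm10 are named in the submitters' processing notes, and the paper names DESeq2. The counting tool is not given in the sources used here. A further 4 columns of group averages were not used.

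Expected counts were rounded and tested with edgeR 4.0.16 in R 4.3.3 (quasi-likelihood, TMM scaling, genotype as the only term, two-sided). Genes entered the test with 0.5 RPKM or more in 3 or more libraries. Benjamini-Hochberg adjustment ran over 13792 genes, and the threshold was 0.05. The common biological coefficient of variation was 5.44%. CPM carried a pseudocount of 0.5 reads on the log2 scale. Reads carried no molecular identifiers and may include PCR copies. The fit was tested on simulated data in which few genes changed, so that the scaling was not tested at the share called here.

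Alternatives were no filter, an RPKM filter of 1, median-of-ratios scaling, scaling by RPKM sums, DESeq2 1.42.0, limma 3.58.1 on log2(RPKM + 1) and log2(RPKM + 0.1), the replicate number as a block, and each library left out. The sum of Abcb1a and Abcb1b was added after the data were seen. The 10 genes and all lists were chosen with earlier results of these data known. Named from each vascular list were up to 3 genes with the largest rise and up to 3 with the largest fall, past the threshold without overlap between groups, and from each cell type list up to 2 genes of highest mean RPKM. Of 202 listed symbols, 201 were found.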

Additional observations from a re-analysis of the deposited data

How the results depend on the processing

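Of the 10 genes, the call of Cldn5 held under all 14 alternatives, and those of Sox17, Cdh5 and Mfsd2a were lost where stated above. The count of lower genes among the 10 went from 1 to 0 under scaling by RPKM sums and in both limma fits. The direction of Slc2a1 reversed with RPKM sums (0.0027). That of Plvap reversed with median-of-ratios scaling (-0.00055) and DESeq2 (-0.0017), and over left-out libraries it ran from -0.10 to 0.12, at -0.10 without WT replicate 3, -0.07 without DISC1-Δ3 replicate 2 and -0.0062 without DISC1-Δ3 replicate 3. With 1 library left out, Pecam1 ranged from -0.0017 without DISC1-Δ3 replicate 1 to 0.062 without DISC1-Δ3 replicate 3, and over the other alternatives it reached 0.12 with RPKM sums. None of these 3 genes passed the test in either direction. The causes were not tested.

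Scaling by RPKM sums moved the median log2 fold change of all genes from 0.0075 to 0.0938, and the share of calls that were higher from 51.05% to 69.96% (4088 of 5843), with 69.19% in limma on log2(RPKM + 1). Endothelial identity genes numbered 12 higher and 3 lower with RPKM sums and 11 higher and 3 lower in either limma fit. Lower junction genes numbered 1 in limma on log2(RPKM + 1), lower transport genes 3 in both limma fits, and lower angiogenic genes 1 with RPKM sums.

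With 1 library left out, the 10 genes numbered 1 to 3 higher and 0 to 1 lower. Without WT replicate 3, DISC1-Δ3 replicate 1 or DISC1-Δ3 replicate 2 the higher count was 1, and without any 1 of the WT replicates the lower count was 0. Identity genes ranged from 5 to 8 higher and 3 to 6 lower, junction genes from 4 to 6 and 2 to 3, transport genes from 4 to 5 and 4 to 6, vascular Wnt genes from 8 to 11 and 2 to 3, and angiogenic genes from 7 to 8 and 2 to 2. Leaving out WT replicate 1 or 3 took the lower identity genes to 3.

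Deviations of same-numbered libraries from their group means had correlations of 0.0396, 0.0447 and 0.0057. These values were small, but each library correlated best with its own number, so whether the numbers pair the libraries cannot be told. With the replicate number as a block, the 10 genes stayed at 3 higher and 1 lower, Cldn5 was at 0.39 (adjusted p = 0.00015, edgeR), and 5429 genes were called in all against 5498. Depth was low for Plvap, Ocln and Sox17, with 58 to 80, 69 to 91 and 54 to 101 reads per library.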
